A study of Mus musculus with 12 samples.

Results

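The genes described here are 37 genes of the primary cilium and of cystic kidney disease, measured in kidneys of Bdkrb2 null and wild-type (WT) mouse embryos. They were chosen by name for their known roles, not by a measured value, though with earlier results of these data known. They are membrane proteins mutated in polycystic kidney disease, nephronophthisis genes, intraflagellar transport (IFT) subunits and motors, BBSome subunits, and genes of Meckel and Joubert syndromes. Their probes were found through each probe's accession, matched to RefSeq. Of the 37 genes, 35 had a probe and 34 had a probe bright enough to be tested, out of 17305 genes on the array and 12647 genes tested. Bbs1 and Mks1 had no probe matched by accession. The Tmem67 probe rose well above background on 0 of 12 arrays in null and 0 of 12 in WT kidneys, so it was not tested.

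Bdkrb2 encodes the bradykinin B2 receptor. Null and WT embryos on a C57BL/6 background came from crosses of heterozygous parents, and their mothers ate food with 5% sodium, so high salt is shared by both genotypes and no group on ordinary food is part of the comparison. Kidneys were taken at embryonic day 14.5, and total RNA of null and WT kidneys was hybridised together on 12 two-colour arrays. On 6 arrays the null RNA carried the red dye Cy5 and the WT RNA the green dye Cy3 (called null/WT), and on the remaining 6 the labelling was reversed (WT/null). There were 3 replicates per orientation, which the submitters describe as biological. A replicate is the average of 2 arrays, so each probe has 6 values. All values below are turned so that a positive log2 ratio means more signal from null than from WT kidneys. The labels give neither the number of embryos behind a replicate nor the design of the null allele, and they do not say whether both orientations of a replicate number used the same RNA. If they did, there were 3 independent samples per genotype and the p-values that treat 6 as separate are too small. Even if they did not, values of the same replicate number were not independent. Each number was hybridised on 1 slide, and deviations of its 2 orientations correlated at 0.587, 0.517 and 0.413 for numbers 1 to 3. For the cilium and cystic kidney genes alone, these correlations were 0.533, 0.607 and 0.738. The p-values, standard errors and intervals that treat the 6 values as separate therefore tend to be too small.

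The primary cilium is a single microtubule-based projection of most kidney epithelial cells. It is built and maintained by IFT trains, which carry cargo toward the tip with a kinesin motor and back to the base with a dynein motor. A transition zone at its base controls which proteins enter, and the BBSome moves membrane proteins in and out. Polycystin-1 and polycystin-2 reside in it, and loss of many of these proteins in kidney tubules leads to cysts. Hedgehog signalling also passes through the cilium. Many ciliary genes carry the X-box, a motif bound by RFX transcription factors that consists of half-sites facing each other.

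Half-sites of that motif were listed for a larger share of these genes than of all genes, as a description without a test. In RefSeq promoter windows (assembly GRCm38.p6, 250 bases before to 50 after the start), the half-site GTTGCC, or GGCAAC on the other strand, was present in 15 of 31 genes (48.4%), against 14.1% of 27025 genes in the table. Counted by window, it was in 44.1% of 34 windows of these genes and in 12.5% of 32851 windows. Glis2, Ift80, Ift81, Ift122, Dync2li1 and Tmem67 had no window in the table. Of 17 half-sites, 7 lay before the start and 10 at or after it. The following stretches show the half-sites of the 5 tested genes that had one before the start and of Tctn1, the only one of these genes with both half-sites facing each other across 2 free bases. Each runs 5′ to 3′ along the gene's own strand. Capitals mark the half-site, and in Tctn1 the whole inverted repeat. They are shown because some members of different complexes hold this half-site. Pkd1, Pkd2 and Pkhd1 had 0 half-sites in their windows.
Ift57: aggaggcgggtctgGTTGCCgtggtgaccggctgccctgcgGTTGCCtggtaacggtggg
Ift140: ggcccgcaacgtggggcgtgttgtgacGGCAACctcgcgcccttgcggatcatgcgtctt
Kif3a: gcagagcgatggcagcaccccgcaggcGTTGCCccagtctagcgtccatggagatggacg
Bbs7: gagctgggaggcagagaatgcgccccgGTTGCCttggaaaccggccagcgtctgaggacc
Arl13b: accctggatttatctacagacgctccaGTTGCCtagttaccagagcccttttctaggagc
Tctn1: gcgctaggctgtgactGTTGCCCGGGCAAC

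In GRCm38.p6 the Ift57 stretch is chr16:49699193-49699252 on the plus strand, and its first half-site is at position -87 from the start. The Ift140 stretch is chr17:25015950-25016009 on the plus strand. The Kif3a stretch is chr11:53567244-53567303 on the plus strand. The Bbs7 stretch is chr3:36613478-36613537 on the minus strand. The Arl13b stretch is chr16:62847189-62847248 on the minus strand. The Tctn1 stretch is chr5:122264411-122264440 on the minus strand and begins 20 bases after the start, in transcribed sequence. The full inverted repeat was found in 1 of the 31 genes (3.23%) and in 0.111% of all genes. A match of letters does not show that a factor binds there. The 13 tested genes with a half-site had a median null over WT of -0.03 (log2), and the 16 with a window but no half-site had 0.01.

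Most tested cilium genes were well above background, as were most tested probes of the array. In both genotypes, 30 of the 34 tested genes were well above background on all 12 arrays. The test itself required this on at least 6 of 12 arrays in null or WT. Counted as all 12 arrays in at least 1 genotype, it held for 19065 of 22976 tested probes and for a probe of 32 of the 34 genes. The lowest was Invs, above background on 6 of 12 arrays in each genotype, followed by Cc2d2a on 10, Bbs5 on 11, and Rpgrip1l on 11 in null and 12 in WT. The array background is common to all genes: between 41.2% and 60.0% of spots were well above background per array and dye. The first array of WT/null replicate 3 stood apart, with a standard deviation of its log2 ratios of 0.381 against 0.164 to 0.256 on the others, and with a correlation of 0.711 to its duplicate against 0.824 to 0.923 for the other duplicate pairs. Of the markers of kidney cell types, 8 of 8 nephron progenitor markers and 9 of 10 ureteric bud markers were above background on every array in both genotypes. The counts were lower for podocyte (4 of 6), proximal tubule (4 of 7) and renal stroma (6 of 7) markers. Of 6 liver markers, Afp, Fgb and Trf were also above it on all 12 arrays in both genotypes and Alb on 9 in null and 12 in WT, while Apoa1 and Ttr were above it on 0. The Bdkrb2 probe was above background on 0 of 12 arrays in null and 1 of 12 in WT kidneys, so it does not check the genotype labels.

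No cilium or cystic kidney gene passed the test between null and WT kidneys. With limma's moderated test and Benjamini-Hochberg adjustment over all tested probes, 0 of 34 genes had an adjusted p under 0.05, and 3 of the 12647 genes tested did (0.0237%). The smallest adjusted p of the 34 was 0.611, for Arl13b. At an unadjusted p under 0.05 there were 5 genes (4 higher and 1 lower in null), against 7.78% of all genes tested. With the replicate number as a block, 2 of the 34 did, Arl13b and Pkhd1, and the share of all genes was not counted in that fit. The same sign in all 6 replicates was found for 2 genes, Pkd1 and Pkhd1, both higher in null, against 3.04% of all genes. The median of the 34 log2 ratios was -0.001, the middle 50% of them lay between -0.04 and 0.07, and the median over all tested genes was -0.003. Of the 34, 17 lay above 0 and 17 below under the loess scaling used here, a split that depends on the scaling: centring each array on its median put 16 of the 17 negative genes above 0, with all tested probes at a median of 0.142.

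The intervals, which tend to be too narrow because replicate values are treated as separate, bound how large a change in measured signal could be. For dim probes this does not bound a change in RNA, since the normexp offset of 50 pulls their ratios toward 0. Invs had log2 levels of 6.36 in null and 6.33 in WT, and Cc2d2a of 6.58 in both. The Tmem67 probe, never above background, had 6.16 in both. The 95% intervals of all 34 genes lay within 1.5-fold of no difference, and 29 genes had a ratio under 0.1 in size on the log2 scale. The widest bound, that of Pkhd1, was 0.38 on the log2 scale, or 1.3-fold. With the replicate number as a block the widest bound was 1.34-fold, and with median centring 1.6-fold. The median standard error was 0.0477 for these genes and 0.0489 for all tested genes.

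**Figure D1:**
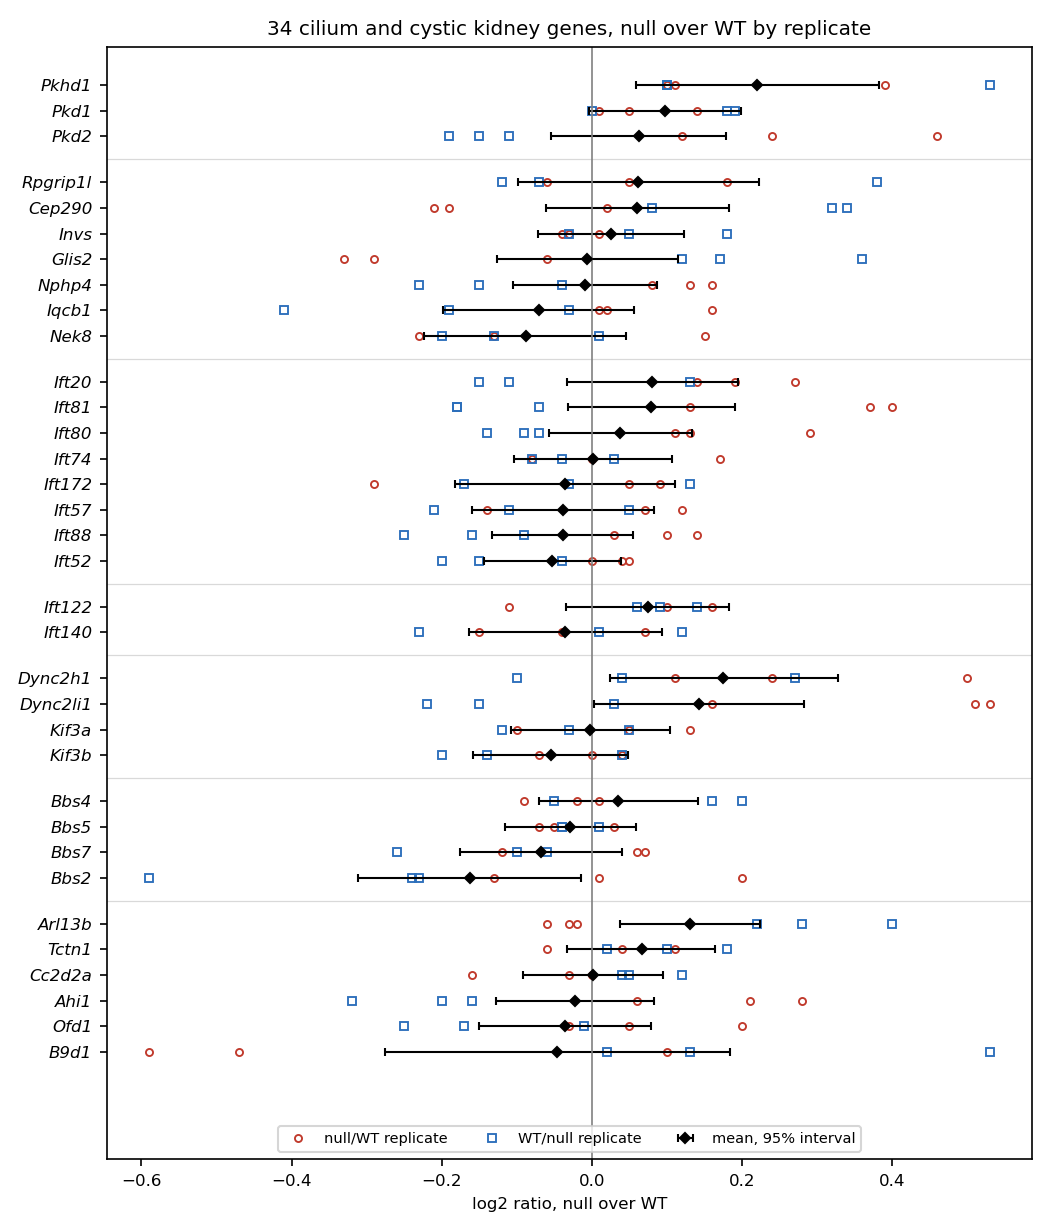
Log2 ratio of null over WT (horizontal axis) for the 34 tested genes, from top to bottom the cystic disease membrane proteins, nephronophthisis genes, IFT-B, IFT-A, motors, BBSome, and Meckel and Joubert genes. Open circles are the 3 null/WT replicates, open squares the 3 WT/null replicates, and diamonds with bars the mean and its 95% interval; the means range from -0.16 for Bbs2 to 0.22 for Pkhd1, and for many genes circles and squares lie on opposite sides of 0.

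Among the cystic disease membrane proteins, all 3 had means above 0. Pkhd1, which encodes fibrocystin, mutated in autosomal recessive polycystic kidney disease, had log2 ratios of 0.10, 0.10 and 0.53 in WT/null replicates 1 to 3 and of 0.10, 0.11 and 0.39 in null/WT replicates 1 to 3. All 6 values were above 0, and both values of replicate number 3 were above the other 4. The mean was 0.22 ± 0.07 (SE), or 1.17-fold, with an unadjusted p of 0.0137 and an adjusted p of 0.629. Without both replicates numbered 3 the mean was 0.10.

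Pkd1, which encodes polycystin-1, the large receptor-like protein most often mutated in dominant polycystic disease, had 0.18, 0.19 and 0.00 in the WT/null replicates and 0.14, 0.05 and 0.01 in the null/WT replicates. All were at or above 0 at this rounding, and those of replicate number 3 were the lowest. The mean was 0.10 ± 0.04 (SE), with an unadjusted p of 0.0582. Pkd2, which encodes the channel polycystin-2, had -0.15, -0.19 and -0.11 in the WT/null replicates and 0.24, 0.12 and 0.46 in the null/WT replicates. The orientations did not overlap: all WT/null values were below 0 and all null/WT values above it. The mean was 0.06 ± 0.05 (SE), with an unadjusted p of 0.256.

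The 7 nephronophthisis genes ranged from -0.09 to 0.06, with 3 above 0 and 4 below, and none reached an unadjusted p under 0.05. Nek8, a kinase of the proximal cilium, had -0.13, 0.01 and -0.20 in the WT/null replicates and -0.13, 0.15 and -0.23 in the null/WT replicates. Here both orientations gave alike values within each replicate number, with numbers 1 and 3 below 0 and number 2 above it. The mean was -0.09 ± 0.06 (SE), with an unadjusted p of 0.169. Iqcb1, which encodes nephrocystin-5, had -0.03, -0.19 and -0.41 in the WT/null replicates and 0.16, 0.02 and 0.01 in the null/WT replicates, so that the orientations again did not overlap. Its mean was -0.07 ± 0.06 (SE). Rpgrip1l (0.06), Cep290 (0.06) and Nphp4 (-0.01), which build the transition zone, Invs (0.03), which encodes inversin, and Glis2 (-0.01), a zinc finger transcription factor, had the remaining means.

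The IFT subunits had means close to 0. The 8 subunits of IFT-B, the complex that works with kinesin toward the tip, had means from -0.05 to 0.08, with 4 above 0 and 4 below. They were Ift20 (0.08), Ift81 (0.08), Ift80 (0.04), Ift74 (0.00), Ift172 (-0.04), Ift57 (-0.04), Ift88 (-0.04), the gene of the orpk cystic kidney mouse, and Ift52 (-0.05). Ift52, the one among them with the smallest p below 0, had -0.04, -0.15 and -0.20 in the WT/null replicates and 0.05, 0.04 and 0.00 in the null/WT replicates, which did not overlap. Its mean was -0.05 ± 0.04 (SE), with an unadjusted p of 0.222. Of IFT-A, the complex that works with dynein toward the base, Ift122 had a mean of 0.07 and Ift140 of -0.04. No IFT gene had an unadjusted p under 0.05.

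Of the 4 motor subunits, the 2 of the dynein had an unadjusted p under 0.05, as did 7.78% of all genes, and neither did with the replicate number as a block (0.057 for Dync2h1 and 0.0831 for Dync2li1). Dync2h1, the heavy chain of the motor that moves trains back to the base, had 0.27, 0.04 and -0.10 in the WT/null replicates and 0.50, 0.11 and 0.24 in the null/WT replicates. Of these, 5 were above 0, and the values of replicate number 1 were the highest of each orientation. The mean was 0.18 ± 0.07 (SE), or 1.13-fold, with an unadjusted p of 0.0279 and an adjusted p of 0.681. Without both replicates numbered 1 it was 0.07.

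Dync2li1, the light intermediate chain of the same motor, had -0.15, -0.22 and 0.03 in the WT/null replicates and 0.53, 0.16 and 0.51 in the null/WT replicates. All null/WT values were above all WT/null values. The mean was 0.14 ± 0.06 (SE), with an unadjusted p of 0.0465 and an adjusted p of 0.709, and without both replicates numbered 3 it was 0.08. The kinesin-2 subunits Kif3a and Kif3b, which drive transport toward the tip, had means of -0.002 and -0.06 with unadjusted p of 0.970 and 0.253. The difference between dynein and kinesin subunits was not tested.

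Dync2h1 also shows how far a value can depend on the probe. It had 5 tested probes, with means of 0.18, 0.11, -0.06, -0.11 and 0.05 from the brightest to the dimmest. The dimmest was above background on 8 of 12 arrays in null and 4 of 12 in WT kidneys and so entered only through null, where it was brighter; of the other 4 probes, 2 were above 0 and 2 below. The unadjusted p was under 0.05 only for the brightest, and the mean over all its tested probes was 0.04. More than 1 probe was tested for 15 genes, and in 4 of these the signs of the probes differed: Bbs4, Kif3a, Dync2h1 and Arl13b. In Bbs4 and Kif3a no probe had an unadjusted p under 0.05.

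**Figure D2:**
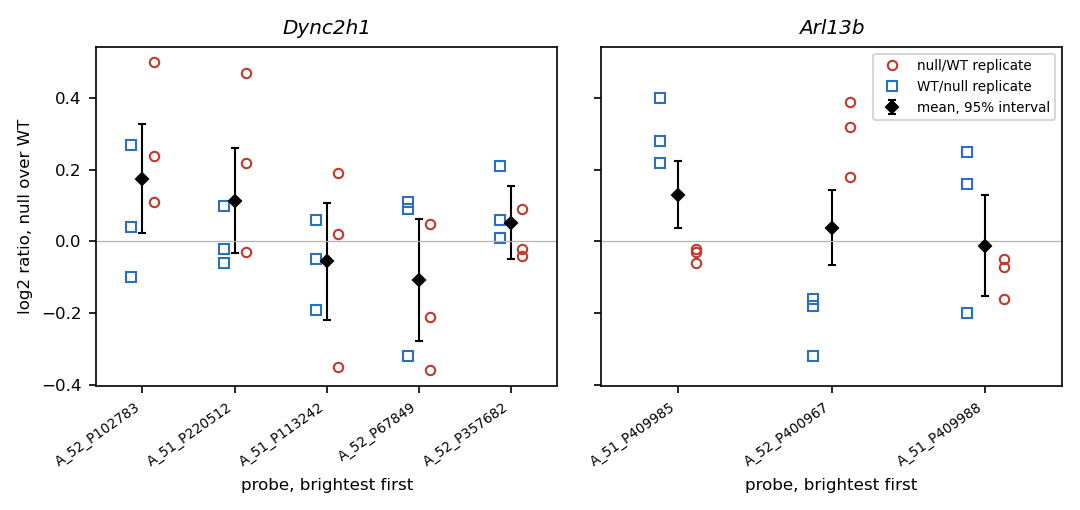
Log2 ratio of null over WT (vertical axis) for each tested probe of Dync2h1 (left) and Arl13b (right), brightest probe first. Circles are null/WT replicates, squares WT/null replicates, and diamonds with bars the mean and 95% interval; the brightest Arl13b probe has its squares above its circles and the next probe has them below.

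Of the BBSome, the coat complex whose mutation causes Bardet-Biedl syndrome, 4 of the 5 genes listed were tested and 3 had means below 0. Bbs2 had -0.23, -0.24 and -0.59 in the WT/null replicates and 0.01, 0.20 and -0.13 in the null/WT replicates. All WT/null values were below all null/WT values, and replicate number 3 gave the lowest of each orientation. The mean was -0.16 ± 0.06 (SE), or 1.12-fold lower in null, with an unadjusted p of 0.0343 and an adjusted p of 0.699. Without both replicates numbered 3 it was -0.07, and with median centring it was -0.01.

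Bbs7 had -0.06, -0.10 and -0.26 in the WT/null replicates and 0.06, -0.12 and 0.07 in the null/WT replicates, with 4 of 6 below 0 and the orientations overlapping. Its mean was -0.07 ± 0.05 (SE), with an unadjusted p of 0.185. Bbs5 and Bbs4 had means of -0.03 and 0.04.

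Of the Meckel and Joubert genes, 6 of the 8 listed were tested. Arl13b, a small GTPase anchored in the ciliary membrane, had 0.22, 0.28 and 0.40 in the WT/null replicates and -0.03, -0.06 and -0.02 in the null/WT replicates. The orientations did not overlap, and only the WT/null values were above 0. The mean was 0.13 ± 0.04 (SE), or 1.09-fold, with an unadjusted p of 0.0116, the smallest of the 34, and an adjusted p of 0.611. Its other tested probes had means of 0.04 and -0.01. On the first of these the orientations were turned about, with -0.18, -0.32 and -0.16 in the WT/null replicates and 0.32, 0.18 and 0.39 in the null/WT replicates.

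B9d1, a transition zone protein, varied most between replicates, with a standard deviation of 0.417. It had 0.13, 0.02 and 0.53 in the WT/null replicates and -0.47, -0.59 and 0.10 in the null/WT replicates. Values differed both by orientation and by replicate number, with number 3 the highest of each orientation. The mean was -0.05 ± 0.10 (SE), with an unadjusted p of 0.658. Tctn1 (0.07), Cc2d2a (0.00) and Ahi1 (-0.02), which also act at or near the transition zone, had unadjusted p of 0.162 or more.

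Ofd1, a centriolar protein and the only X-linked gene among the 34, had a mean of -0.04, with means of 0.10, -0.10 and -0.10 for replicate numbers 1, 2 and 3. Xist, transcribed from the inactive X chromosome, was above background on all 12 arrays in null kidneys and in WT kidneys only on the 4 arrays of number 1, while Ddx3y, Eif2s3y and Kdm5d of the Y chromosome were above it on 0 of 12 arrays in null and on the 8 arrays of numbers 2 and 3 in WT kidneys. In replicate numbers 2 and 3, null over WT was thus also a comparison of RNA without and with Y transcripts, for all 34 genes. Genotype and sex cannot be told apart in those numbers. The part of this difference in the values of Ofd1 and of the other genes was not tested.

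The dye mattered for these genes about as often as for the array as a whole. The dye term, the part of the log2 ratio that follows Cy5 over Cy3 in both genotypes, had an adjusted p under 0.05 for 6 of 34 genes, against 15.7% of all genes tested. Ift81 (0.22), Pkd2 (0.21), Ahi1 (0.21) and Dync2li1 (0.25) were brighter in Cy5, and Arl13b (-0.17) and Glis2 (-0.22) in Cy3. With the replicate number as a block, 0 of the 34 passed for the dye term, and the share of all genes was not counted in that fit. That fit gave each slide its own dye mean, and its residual was the spread of null over WT between slides. The 0 therefore does not show that the dependence on dye went away. The mean of the WT/null replicates and that of the null/WT replicates had opposite signs in 23 of 34 genes, against 66.4% of all genes tested. The median size of the dye term was 0.08 and that of the genotype term 0.05, against 0.08 and 0.05 over all genes. The dye term cancels from the mean over both orientations, so it does not shift the means given above.

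**Figure D3:**
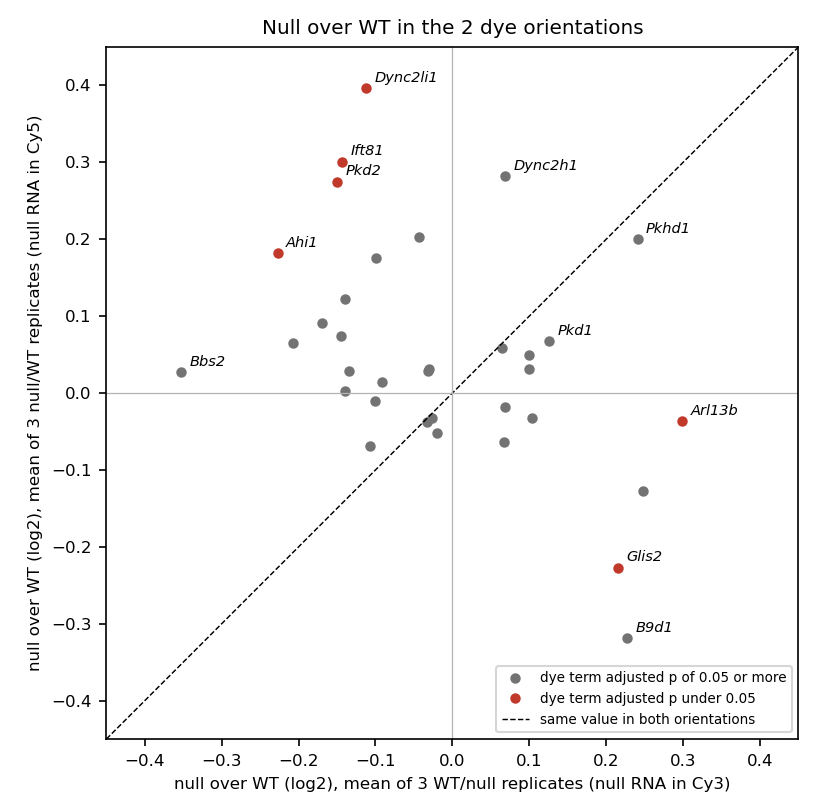
Mean log2 ratio of null over WT in the 3 WT/null replicates (horizontal axis) against that in the 3 null/WT replicates (vertical axis), 1 point for each of the 34 genes, with the dashed line where both are equal. Points at the upper left and lower right of the lines at 0, 23 of 34, have opposite signs in the 2 orientations; the 6 red points are genes whose dye term had an adjusted p under 0.05.

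Each replicate number was hybridised on 1 slide of 4 arrays, so a difference between numbers is also one between slides. The sex transcripts of WT kidneys also differed between number 1 and numbers 2 and 3, so that difference cannot be told apart from one of sex. Null over WT differed between slides for 0 of 34 genes at an adjusted p under 0.05, against 1.67% of all genes tested, by limma's moderated F test. That count was 13 without null/WT replicate 3, 6 without WT/null replicate 3, and 25 with median centring. Of all tested probes, 9939 of 22976, 4318 of 22977 and 11577 of 22976 then differed, against 341 of 22976 in the main fit. At an unadjusted p under 0.05 it differed for 9 of the 34, against 19.8% of all genes. Among the brightest probes the smallest p was that of B9d1 (0.0012, adjusted 0.0615), with slide means of -0.17, -0.29 and 0.32. Pkhd1 followed (0.00784, adjusted 0.127), with slide means of 0.10, 0.10 and 0.46, and Bbs2 (0.0258, adjusted 0.206), with -0.11, -0.02 and -0.36. The dimmer Glis2 probe had a p of 0.00116 (adjusted 0.0606), with slide means of -0.20, 0.19 and -0.42. On slide 3 it went the other way from the brightest Glis2 probe, which had -0.10, -0.06 and 0.15. The medians of the 34 genes on the slides were 0.04, -0.03 and 0.01.

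Markers of other cell types had different values on slide 3. The 7 proximal tubule markers had a median null over WT of -0.04, 0.05 and 0.91 on slides 1, 2 and 3, and all 7 were above 0 on slide 3. Their summed brightness on slide 3 was 11646 to 11861 in null and 5308 to 5328 in WT kidneys, within ranges over all slides of 3505 to 14165 in null and 3851 to 12911 in WT. None of the 7 was at background throughout, though Cubn was above it on only 5 arrays in null and 4 in WT. The 8 skeletal muscle and cartilage markers had medians of 0.14, 0.38 and 1.29, with 5 of 8 above 0 on slide 3. On that slide the muscle genes Tnnc2, Myh8, Myh3 and Acta1 were at 2.16 to 2.92, Myog at 0.42 and Myod1 at -0.01. The cartilage genes Col2a1 (-0.55) and Acan (-0.04) were below 0. The summed brightness of the list there was 5151 to 5749 in null and 3588 to 3657 in WT. The 6 liver markers had medians of 0.02, 0.05 and 0.15, with Afp at 1.45 on slide 3 and the others at 0.00 to 0.28. Their summed brightness there was 6529 to 6688 in null and 2848 to 3007 in WT. This sum mostly follows Afp, which had a log2 level of 11.87 in null, against 8.78 for Fgb, the next brightest. The 8 nephron progenitor markers had medians of 0.00, -0.04 and -0.17. The part of these differences in the slide 3 values of Pkhd1, B9d1 and Bbs2 was not tested. In whole kidneys a change in the number of cells of a type and a change in RNA per cell cannot be told apart.

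**Figure D4:**
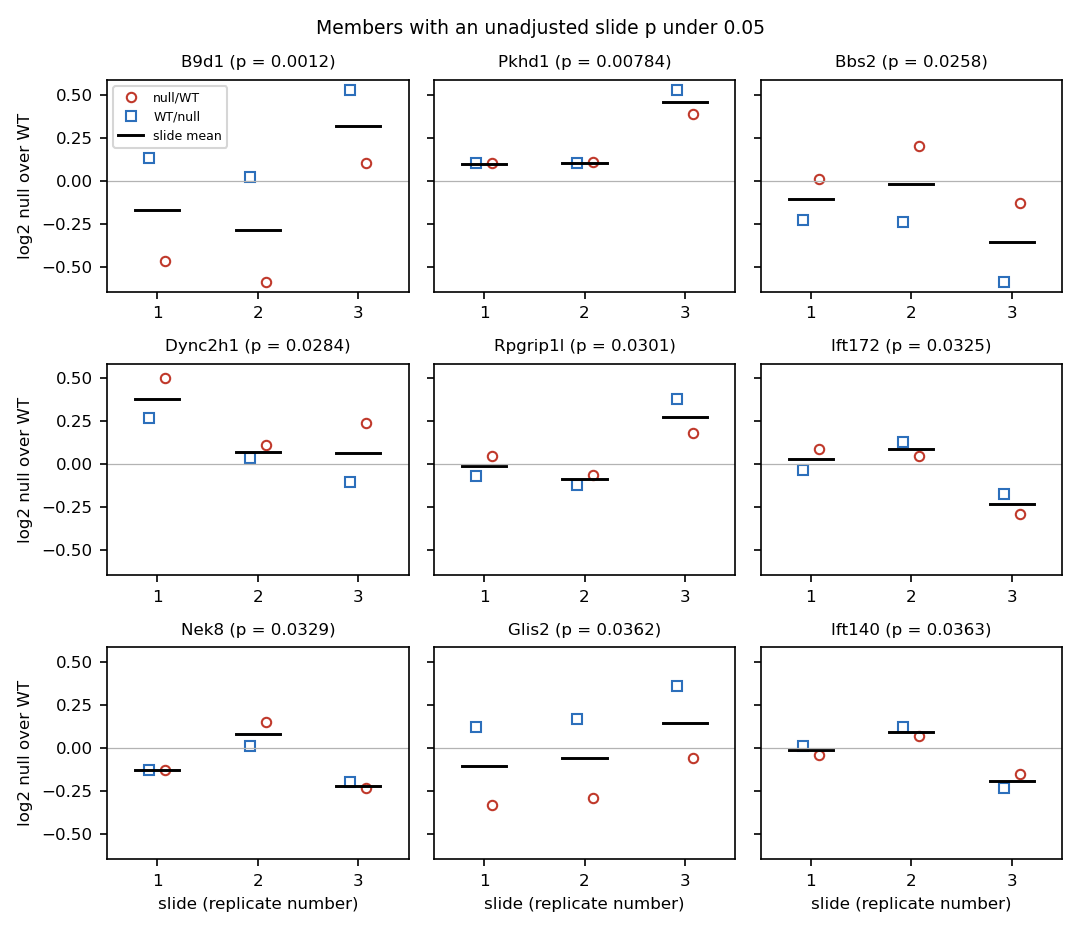
Log2 ratio of null over WT (vertical axis) by slide, which is also the replicate number (horizontal axis), for the 9 genes with an unadjusted p under 0.05 between slides. Circles are null/WT replicates, squares WT/null replicates and bars the slide mean, for the brightest probe of each gene. B9d1, Pkhd1, Rpgrip1l and Glis2 are highest on slide 3, and Bbs2, Ift172, Nek8 and Ift140 lowest there. The dimmer Glis2 probe, not drawn, was lowest on slide 3.

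Other genes of cilia and cystic kidneys were examined in 5 lists, each with 0 genes past the threshold, beside the 0.0237% of all genes that passed. Differences between the lists were not tested. Among other IFT and ciliary motor genes, 19 of 21 were tested, with 13 above 0, 6 below and a median of 0.04. Wdr19, an IFT-A subunit, had the smallest unadjusted p above 0 (0.14 ± 0.05 SE, p of 0.0145), and Tulp3, an adaptor that brings membrane receptors to IFT-A, the smallest below (-0.08 ± 0.05 SE, p of 0.117). Wdr60, a dynein-2 intermediate chain named here after its values were seen, had a mean of -0.16 on its brightest probe and of -0.33 ± 0.04 (SE) on the other, whose adjusted p was 0.0778 and, with the replicate number as a block, 0.80. Wdr60 lies on chromosome 12, as does the deleted gene Bdkrb2. Of the other tested genes of the 5 lists on that chromosome, Ttc8 (-0.19) was below 0, and Wdr35 (0.02), Ift43 (0.06) and Dnah11 (0.10) were above it. The part of linkage to Bdkrb2 in these values was not tested.

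Among other BBSome, transition zone and nephronophthisis genes, 23 of 28 were tested, with 13 above 0, 10 below and a median of 0.00. Ttbk2, the kinase that licenses cilium assembly, had the smallest p above 0 (0.12 ± 0.04 SE, p of 0.0201). Below 0, the BBSome subunit Ttc8 had a mean of -0.19 from a dim probe that was above background on 2 of 12 arrays in null and 7 of 12 in WT kidneys. It entered the test only through WT, the group where it was brighter, so its p is not given. Ttc8 lies on chromosome 12, as do Wdr60 and Bdkrb2. The next smallest p below 0 was that of Tmem216, a transition zone protein above background on all arrays (-0.11 ± 0.04 SE, p of 0.0213).

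Among other cystic kidney genes, 11 of 13 were tested, with 8 above 0, 3 below and a median of 0.09. Lrp5, a Wnt co-receptor, had the smallest p above 0 (0.21 ± 0.06 SE, p of 0.00721, adjusted 0.581), with 0.46, 0.55 and 0.40 in the WT/null replicates and -0.29, -0.02 and 0.12 in the null/WT replicates. Dzip1l, a transition zone protein, had the smallest p below 0 (-0.09 ± 0.07 SE, p of 0.283). Umod, the uromodulin gene of the thick ascending limb, had slide means of -0.01, 0.08 and 0.88, which differed with an adjusted p of 0.0376.

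Of the Hedgehog pathway genes, 13 of 15 were tested, with 5 above 0, 8 below and a median of -0.04. The transcription factors of the pathway had the smallest p in each direction, Gli3 (0.12 ± 0.06 SE, p of 0.0723) above 0 and Gli1 (-0.10 ± 0.06 SE, p of 0.126) below. Of the regulators of ciliogenesis and genes of motile cilia, 13 of 23 were tested, with 5 above 0, 8 below and a median of -0.01. Dnah11, a dynein of motile cilia, had the smallest p above 0 (0.10 ± 0.06 SE, p of 0.153), and Rfx3, an X-box factor, the smallest below (-0.07 ± 0.04 SE, p of 0.102). These counts above and below 0 hold for the loess scaling.

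**Figure D5:**
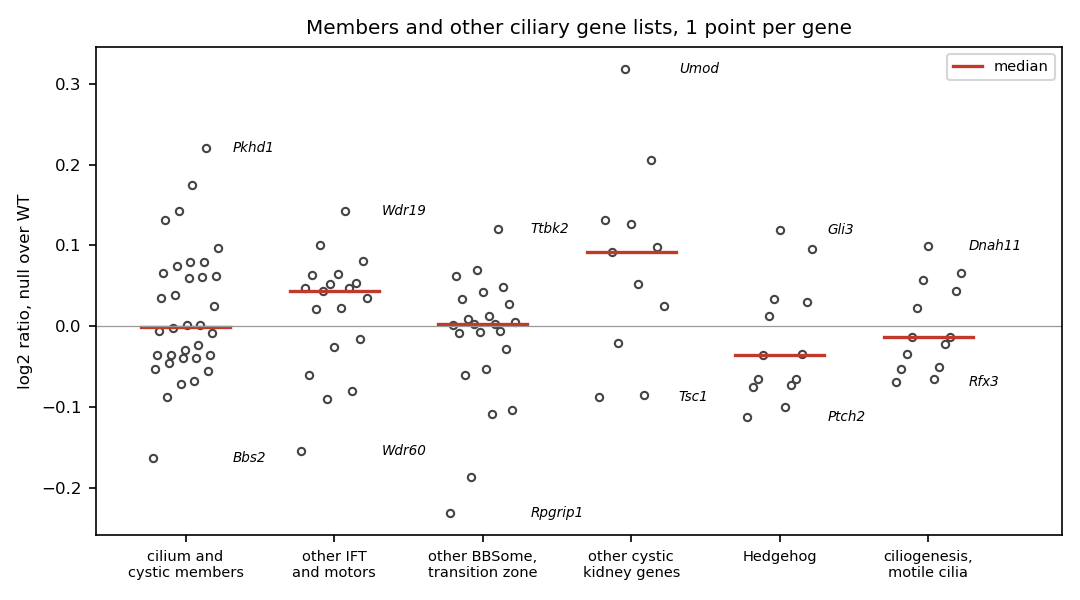
Log2 ratio of null over WT (vertical axis), 1 point per tested gene, for the 34 genes and the 5 other lists, with the median of each list as a red line and the highest and lowest gene of each named. The medians lie between -0.04 and 0.09 under the loess scaling.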

How the data were processed

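12 two-colour Agilent arrays were used. Median spot and local background intensity per dye was deposited as scanned, and log10 ratios of Cy5 over Cy3 were made, per the file headers, by version 10.5.1.1 of Agilent Feature Extraction (6.1 in the submitters' processing notes). The series value table deposited by the authors held log10 ratios turned to null over WT (correlation with the scanner's 0.998 to 0.999, slope 1; column medians from -0.0218 to 0.00645; the choice of its blank entries is unknown).

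Background was corrected with normexp (offset 50) and log2 ratios were loess-normalized within each array. Controls and 101 to 262 outlier spots per array had weight 0 and were left out. Spots of a probe and then the 2 arrays of a replicate were averaged. A probe was tested if well above background in the null or WT channel on at least 6 of 12 arrays, and 22976 of 41174 probes were fitted. Of all probes, 25097 had a symbol through accession matched to RefSeq GRCm38.p6. A gene is its brightest tested probe. The array header names build mm9, so probes are given no coordinates.

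limma 3.58.1 in R 4.3.3 fitted genotype and dye, with Benjamini-Hochberg adjustment over all tested probes. The pairing by replicate number was checked: deviations of same-numbered WT/null and null/WT replicates correlated at 0.587, 0.517 and 0.413, and each number is 1 slide. The number of arrays limits the precision (median standard error 0.0506).

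Values per replicate are given for the 5 genes with the smallest unadjusted p in each direction, the 3 with the smallest p between slides, Pkd1, Pkd2, Pkhd1, and genes whose probes disagree in sign with an unadjusted p under 0.05. In the other lists, the smallest p in each direction is named. Members and lists were chosen with earlier results of these data known. Alternatives covered scaling, scanner and authors' ratios, dim-probe filters, averaging of probes, dye term, slide block and left-out arrays.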

Additional observations from a re-analysis of the deposited data

Results flagged for a closer look

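The 6 replicate values of each of the 34 genes were screened for a value far from the rest by Dixon's test, which chance meets in about 1 of 20 groups. Ift122 had -0.11 in null/WT replicate 2, against 0.06 to 0.16 in the other 5 values. Invs had 0.18 in WT/null replicate 3, against -0.04 to 0.05 in the other 5. Umod differed between slides, with an adjusted p of 0.0376 from limma's moderated F test and slide means of -0.01, 0.08 and 0.88; the proximal tubule markers were also higher in null kidneys on slide 3, and their part in it was not tested.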

How the results depend on the processing

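Under every alternative run, 0 of the tested cilium genes passed the threshold between null and WT. When arrays were centred on their medians instead of by loess, the 34 genes had a median of 0.171. The dye term then passed for 30 and slides differed for 25 of them. All tested probes had a median of 0.142 there, slides differed for 11577 of these 22976 probes, and the cause was not tested. The share of all probes with a dye term past the threshold was not counted under that setting. Slides differed for 1 gene where probes had to be above background on all 12 arrays, and for 727 of the 19065 probes then tested. They differed for 2 genes once array 1 of WT/null replicate 3 was left out, and for 1547 of 22966 probes. Leaving out that array also gave 7 genes with a dye term past the threshold. It gave 15 probes of all kinds past the threshold between null and WT, in place of 9. Averaging the probes of a gene left 3 genes with a dye term past the threshold. The shares of all probes with such a dye term were not counted in these settings or in those with replicates left out. With the replicate number as a block, 4 probes passed in place of 9, the dye term passed for 0 cilium genes, and 2 rather than 5 cilium genes had an unadjusted p under 0.05. The shares of all genes for the dye term and the unadjusted p were not counted in that fit. Its residual was the spread of null over WT between slides, so the 0 does not show that the dependence on dye went away. Leaving out single replicates or a replicate number in both orientations gave 3 to 62 probes past the threshold (62 without number 3), medians of the cilium genes from -0.003 to 0.026, 0 to 9 genes with a dye term past the threshold, and 0 to 13 genes that differed between slides (13 without null/WT replicate 3, 6 without WT/null replicate 3). Of all tested probes, 9939 of 22976 and 4318 of 22977 differed between slides in the last 2 settings. The sign of the mean changed for 16 of 34 genes under median centring, for 1 to 8 when replicates were left out, and for at most 2 under the other alternatives; no gene whose interval left out 0 changed sign. The share of promoters was 48.4% for a half-site and 3.23% for the full repeat, a stricter motif. Signal over background limits Invs, Cc2d2a, Bbs5 and Rpgrip1l.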
